A study of Homo sapiens with 12 samples.

Results

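The EGR, KLF and IER early genes are 10 genes chosen by name: the early growth response factors EGR1, EGR2 and EGR3, the immediate early response genes IER2, IER3 and IER5, and the Krüppel-like factors KLF2, KLF4, KLF6 and KLF10. All 10 were found among 59577 genes of the table. They were picked by name and by no threshold on a value, but with earlier results of these data known. Their RNA was measured in H1299, an established human cell line of non-small cell lung cancer. The hyperoxia group was held for 24 h at 60% O2, 5% CO2 and 35% N2 (n = 6), and the normoxia group at 21% O2, 5% CO2 and 74% N2 (n = 6). Both groups share the line and its genotype, and no label tells whether the 6 samples came from separate cultures. The p-values therefore cover only sample-to-sample spread, part or all of which may be technical.

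Immediate early genes are transcribed within minutes of a growth factor or stress signal, without new protein synthesis, through factors that already sit in the cell, such as serum response factor (SRF) with its ELK partners downstream of the ERK kinases. EGR factors are zinc finger activators that bind GC-rich sites and are held in check by the NAB corepressors. KLF proteins bind GC-rich and CACCC sites through 3 zinc fingers; KLF2 and KLF4 are known targets of the ERK5 (MAPK7) and MEF2 pathway in endothelial cells. IER2 and IER5 are nuclear proteins of one family, while IER3 is an unrelated small protein linked to survival signalling.

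The values were TPM, an abundance corrected for transcript length and scaled to a common total, so levels can be set side by side between genes. Each sample summed to between 996138 and 998797 TPM, and the depth is unknown. Of the markers fixed for the line, KRT8 ranged from 564 to 620 TPM in hyperoxia and from 551 to 625 TPM in normoxia, and 7 of 12 lung and epithelial markers averaged under 1 TPM, among them EPCAM, CDH1 and NKX2-1. SFTPC was listed at 0 in all 12 samples. Of 12 markers of other cell types 10 averaged under 1 TPM, CD3E and HBB were at 0 throughout, and the summed list ran from 40.51 to 53.47 TPM in hyperoxia and from 41.15 to 51.69 TPM in normoxia, nearly all of it CD68. Normoxia replicates 4 to 6 tended to differ from normoxia replicates 1 to 3, without a clean split. Across genes, deviations from the group mean correlated at -0.34 to -0.16 between these sets and at -0.22 to 0.01 within them. These ranges overlap, and all pairs of hyperoxia samples lay at -0.27 to -0.12. Deviations from a group's own mean cancel out within the group, so negative correlations arise even where no sets differ. The tested members and the counts over all genes were also fitted without normoxia replicates 4 to 6. Values of related genes are given with all 12 samples only.

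Under hyperoxia the 3 families did not move as one. EGR1 and IER5 rose, KLF2, KLF4, KLF6 and IER2 fell, and IER3 and KLF10 did not pass the test. These calls come from limma on log2(TPM + 1) with Benjamini-Hochberg adjustment over the 14520 genes with a mean of at least 1 TPM, at an adjusted p under 0.05. EGR2 and EGR3 lay under that minimum and were not tested. The other 8 members averaged at least 1 TPM in each group. Thus 2 of 8 tested members rose, where 11.7% of all tested genes rose, and 4 of 8 fell, where 5.63% of all tested genes fell. The median log2 fold change was -0.08 over the 8 tested members and 0.03 over all tested genes. In 3 members the groups did not overlap, EGR1 and IER5 with hyperoxia higher (6.20% of tested genes) and KLF2 with hyperoxia lower (2.58%); 8.78% of tested genes did not overlap in either direction.

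**Figure D1:**
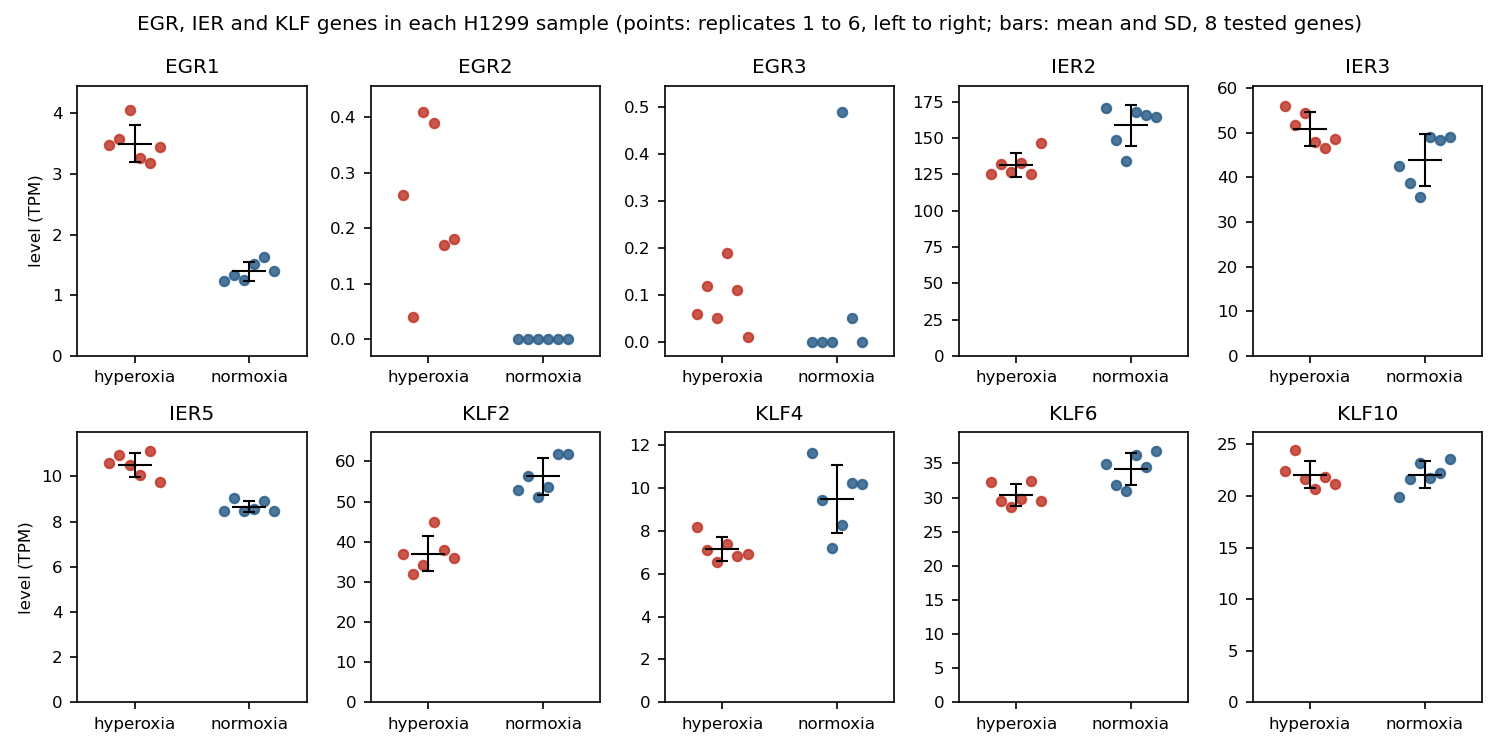
Level in TPM (y axis, a scale for each gene) of the 10 genes in each hyperoxia sample (red, left) and normoxia sample (blue, right); black bars give the mean and SD for the 8 tested genes. EGR1 points lie at 3.19 to 4.06 TPM in hyperoxia and at 1.24 to 1.64 TPM in normoxia, while KLF10 averages 22.03 TPM in both groups.

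EGR1 (ENSG00000120738), the founding early growth response factor, was a low-abundance transcript with the largest change of the 8 tested members. Its level was 3.19 TPM at the lowest, 3.46 at the median and 4.06 at the highest in hyperoxia, against 1.24, 1.365 and 1.64 TPM in normoxia. Every hyperoxia sample therefore lay above every normoxia sample. The means were 3.50 ± 0.308 TPM in hyperoxia and 1.395 ± 0.157 TPM in normoxia (SD, n = 6 each), a ratio of 2.51. On the log2(TPM + 1) scale, which understates changes at such levels, the log2 fold change was 0.91 (SE 0.08, limma, Benjamini-Hochberg adjusted p = 1.01e-05), a larger absolute change than that of 98.8% of the tested genes. With a pseudocount of 0.1 the log2 fold change was 1.27. EGR1 ranked low in abundance, above only 14.7% of tested genes.

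EGR2 (ENSG00000122877), the factor that drives myelin genes in Schwann cells, was listed at 0 in all 6 normoxia samples and above 0 in all 6 hyperoxia samples. The hyperoxia values were 0.26, 0.04, 0.41, 0.39, 0.17 and 0.18 TPM. No fold is given against a group listed at 0. In a limma fit with no minimum level, which EGR2 entered through the hyperoxia group alone, its Benjamini-Hochberg adjusted p was 0.0164; 3.87% of the 32380 genes of that fit were called higher and 1.75% lower. EGR3 (ENSG00000179388), a further family member that follows T cell and neuronal signals, showed no such split. Its hyperoxia values were 0.06, 0.12, 0.05, 0.19, 0.11 and 0.01 TPM, against 0, 0, 0, 0.49, 0.05 and 0 TPM in normoxia. The groups overlapped through normoxia replicates 4 and 5, and without a minimum level the adjusted p was 0.953 (limma, Benjamini-Hochberg). EGR4, the remaining family member, ranged from 0.07 to 0.20 TPM in hyperoxia and from 0 to 0.27 TPM in normoxia. The summed EGR1, EGR2 and EGR3 level ran from 3.47 to 4.52 TPM in hyperoxia and from 1.24 to 2.00 TPM in normoxia.

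The authors' deposited table marks EGR1, EGR2 and EGR3 as significant and none of the IER or KLF members. How many of all genes it marks, or gives an adjusted p under 0.05, was not counted here. The member counts from it therefore have no background share beside them. Its adjusted p was nonetheless under 0.05 for 5 of those 7: in the authors' deposited table it is 4.88e-10 for IER2, 5.41e-05 for IER5, 1.94e-20 for KLF2, 1.3e-05 for KLF4 and 0.0134 for KLF6, each with the direction called here. In the authors' deposited table EGR1 has a log2 fold change of 1.31 with an adjusted p of 6.62e-27. In the authors' deposited table EGR2 has a fold change of 32.1 with a p of 2.66e-06 and an adjusted p of 1. In the authors' deposited table EGR3 has a fold change of 5.09 with a p of 0.0168 and an adjusted p of 1, although both group means in that table are 0.09 TPM.

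The upstream sequences of EGR1 and EGR2 are shown because each holds the CArG box, the recognition element of SRF (CC, then A or T only, then GG), in front of its start. RefSeq promoter windows (GRCh38.p14, 250 bases before to 50 after a start, both strands searched) were matched by symbol for 7 of the 10 members: EGR1, EGR2, IER2, IER5, KLF2, KLF4 and KLF6. These 7 had 9 windows, with 3 starts for EGR2. The box was in 2 of the 9 windows, while 1.29% of all 35116 windows held one. The 250 bases before each start are printed 5′ to 3′ with the CArG boxes in capitals. EGR1 lies at chr5:138465229-138465478 (plus strand), EGR2 at chr10:62816367-62816616 (minus strand, 1 of the 3 starts) and KLF2, the member with the largest fall and no such box, at chr19:16324576-16324825 (plus strand).
EGR1: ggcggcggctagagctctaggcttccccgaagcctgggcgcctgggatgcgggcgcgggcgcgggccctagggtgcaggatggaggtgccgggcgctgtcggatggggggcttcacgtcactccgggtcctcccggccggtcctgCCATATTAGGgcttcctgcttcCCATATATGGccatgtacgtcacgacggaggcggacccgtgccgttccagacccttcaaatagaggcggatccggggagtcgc
EGR2: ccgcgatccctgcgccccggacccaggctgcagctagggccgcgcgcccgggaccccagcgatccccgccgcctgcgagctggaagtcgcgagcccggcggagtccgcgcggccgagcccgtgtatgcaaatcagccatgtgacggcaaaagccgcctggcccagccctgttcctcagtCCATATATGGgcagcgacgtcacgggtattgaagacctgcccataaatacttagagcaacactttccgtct
KLF2: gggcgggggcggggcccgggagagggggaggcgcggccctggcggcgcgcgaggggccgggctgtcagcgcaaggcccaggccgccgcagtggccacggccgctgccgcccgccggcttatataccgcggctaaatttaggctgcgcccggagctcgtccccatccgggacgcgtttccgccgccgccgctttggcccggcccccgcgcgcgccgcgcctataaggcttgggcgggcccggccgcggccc
In EGR1 the boxes begin 105 and 83 bases before the start and read CCATATTAGG and CCATATATGG. In EGR2 the box begins 71 bases before the start and reads CCATATATGG, the same letters as the nearer EGR1 box. None of the 9 windows held the EGR site GCGTGGGCG (0.795% of all windows), the cyclic AMP response element TGACGTCA (1.85%), the AP-1 site TGACTCA (4.95%) or TATAAA (11.5%). The antioxidant element core TGACNNNGC was in the EGR2 window with the CArG box, which it does not overlap, and in 13.3% of all windows. These are letter matches, not measured binding. Sites of other factors, MEF2 among them, were not searched for.

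The KLF members were the more abundant factors and 3 of the 4 fell, while KLF10 did not pass the test. KLF2 (ENSG00000127528), a factor of quiescence in endothelial and T cells, had the largest fall. Its level was 32.05 TPM at the lowest, 36.4 at the median and 44.9 at the highest in hyperoxia, against 51.2, 54.9 and 61.9 TPM in normoxia. The groups did not overlap. The means were 37.0 ± 4.39 TPM in hyperoxia and 56.3 ± 4.61 TPM in normoxia (SD, n = 6 each), a log2 fold change of -0.59 (SE 0.07, limma, Benjamini-Hochberg adjusted p = 1.89e-04). This was a larger absolute change than in 97.4% of tested genes. In the authors' deposited table KLF2 has a log2 fold change of -0.51.

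KLF4 (ENSG00000136826), a factor of epithelial differentiation and of induced pluripotency, ranged from 6.53 to 8.15 TPM around a median of 7.03 in hyperoxia, against 7.19 to 11.6 TPM around 9.80 in normoxia. The groups overlapped through normoxia replicate 3, at 7.19 TPM. In limma it fell by 0.35 as a log2 fold change (SE 0.09, Benjamini-Hochberg adjusted p = 0.0217). The call was lost without normoxia replicates 4 to 6 (adjusted p = 0.116) at a similar log2 fold change of -0.33. The exact rank-sum test also lost it (adjusted p = 0.0559), as did a fit with no minimum level (0.0565).

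KLF6 (ENSG00000067082), a widely expressed factor described as a tumour suppressor candidate, ranged from 28.7 to 32.4 TPM in hyperoxia and from 31.0 to 36.9 TPM in normoxia. The groups overlapped. In limma it fell by 0.17 as a log2 fold change (SE 0.05, Benjamini-Hochberg adjusted p = 0.0399), the smallest change called among the members. The call was lost in 8 of the 12 fits that left out 1 sample, those without normoxia replicates 1, 4, 5 or 6 and without hyperoxia replicates 2, 3, 4 or 6 (adjusted p from 0.0688 to 0.0826). Without normoxia replicates 4 to 6 its log2 fold change was -0.10 (adjusted p = 0.335).

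KLF10 (ENSG00000155090), the TGF-beta inducible early factor, was at the same mean of 22.03 TPM in both groups, with an SD of 1.31 TPM in hyperoxia and 1.30 TPM in normoxia (n = 6 each). Its log2 fold change had an SE of 0.05 (limma, Benjamini-Hochberg adjusted p = 0.999). The summed KLF members came to 96.6 ± 4.63 TPM in hyperoxia and 122 ± 7.21 TPM in normoxia (SD, n = 6 each). KLF2 made up 34.4% to 43.7% of that sum in hyperoxia and 44.3% to 48.0% in normoxia. These shares did not overlap, but they use the same KLF2 values as above and are no separate result.

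Of the IER genes, 1 rose, 1 fell and 1 did not pass. IER2 (ENSG00000160888), a nuclear regulator of early transcription, was the most abundant member, above 93.6% of tested genes. Its level was 125 TPM at the lowest, 129 at the median and 147 at the highest in hyperoxia, against 134, 165 and 171 TPM in normoxia. The groups overlapped through normoxia replicate 3 and hyperoxia replicate 6. In limma it fell by 0.27 as a log2 fold change (SE 0.06, Benjamini-Hochberg adjusted p = 0.00855). Without normoxia replicates 4 to 6 the log2 fold change was -0.20 and the call was lost (adjusted p = 0.127).

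IER5 (ENSG00000162783), a cofactor of heat shock factor signalling, moved the other way. It ranged from 9.77 to 11.1 TPM around a median of 10.6 in hyperoxia, against 8.47 to 9.03 TPM around 8.525 in normoxia. Its 6 hyperoxia samples all exceeded the highest normoxia sample. The log2 fold change was 0.25 (SE 0.05, limma, Benjamini-Hochberg adjusted p = 0.00264), with means of 10.5 ± 0.516 TPM in hyperoxia and 8.66 ± 0.248 TPM in normoxia (SD, n = 6 each). The call was lost in the fits on 3 samples a group (adjusted p = 0.102 and 0.177).

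IER3 (ENSG00000137331), known to modulate ERK signalling and survival, gave means of 50.8 ± 3.78 TPM in hyperoxia and 43.8 ± 5.83 TPM in normoxia (SD, n = 6 each). Its log2 fold change of 0.22 did not pass the test (SE 0.08, limma, Benjamini-Hochberg adjusted p = 0.0862). The values divided by replicate number. In replicates 1 to 3 they were 56.0, 51.6 and 54.4 TPM in hyperoxia, against 42.5, 38.6 and 35.6 TPM in normoxia. In replicates 4 to 6 they were 47.9, 46.6 and 48.5 TPM in hyperoxia, against 48.9, 48.4 and 49.0 TPM in normoxia. Fits on those samples alone, chosen after the values were seen, gave 0.47 for replicates 1 to 3 (adjusted p = 0.0264) and -0.03 for replicates 4 to 6 (adjusted p = 0.748; limma, Benjamini-Hochberg). Without normoxia replicates 4 to 6 the log2 fold change was 0.38 (adjusted p = 0.0116). Samples of the same number were not alike across the groups, but that check does not cover sets such as replicates 1 to 3 and 4 to 6. The labels name no batch, so what these numbers share was not tested.

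In the annotation IER2 and IER3 overlap antisense genes, and whether the counting used strand is not stated in the sources used here. Reads of the partners may therefore not be told apart. The IER2 partner AC011446.2 ranged from 0 to 3.08 TPM in hyperoxia and from 0 to 0.80 TPM in normoxia. IER3-AS1 ranged from 0.74 to 3.66 TPM in hyperoxia and from 1.39 to 4.20 TPM in normoxia. The antisense partner of EGR3, AC055854.1, was listed at 0 in all 12 samples. In bulk RNA, fewer cells expressing a gene and less RNA per cell cannot be told apart for any of these genes.

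**Figure D2:**
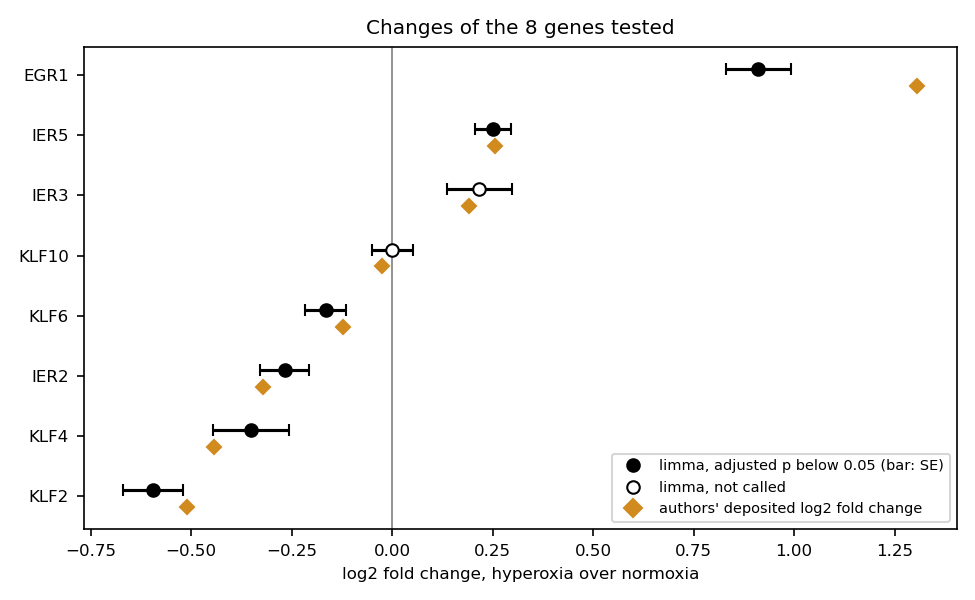
Log2 fold change of hyperoxia over normoxia (x axis) for the 8 tested genes (rows); circles with SE bars are limma on log2(TPM + 1), filled where called, and diamonds are the authors' deposited values, whose formula is not known here. EGR1 lies farthest right at 0.91 and KLF2 farthest left at -0.59.

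The order of levels shifted between groups. In hyperoxia the order of means was IER2, IER3, KLF2, KLF6, KLF10, IER5, KLF4 and EGR1, with EGR2 and EGR3 last. In normoxia KLF2 stood above IER3, and KLF4 above IER5; the order was otherwise the same down to EGR1. Neighbours whose values overlapped were KLF2 and KLF6 in hyperoxia, IER3 and KLF6 as well as KLF4 and IER5 in normoxia, and EGR2 and EGR3 in both groups. Ratios taken within a sample do not depend on its scaling. The ratio of IER3 to KLF2 was 1.07 to 1.61 in hyperoxia, above 1 in 6 of 6 samples, against 0.685 to 0.913 in normoxia, above 1 in 0 of 6. The ratio of IER5 to KLF4 was 1.30 to 1.63 in hyperoxia, above 1 in 6 of 6 samples, against 0.731 to 1.18 in normoxia, above 1 in 2 of 6. Neither ratio overlapped between the groups; both pairs were picked after their values were seen, and no test is given. By contrast, KLF2 exceeded KLF10 in all 12 samples, by 1.31 to 2.17 times in hyperoxia and 2.21 to 2.79 times in normoxia.

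**Figure D3:**
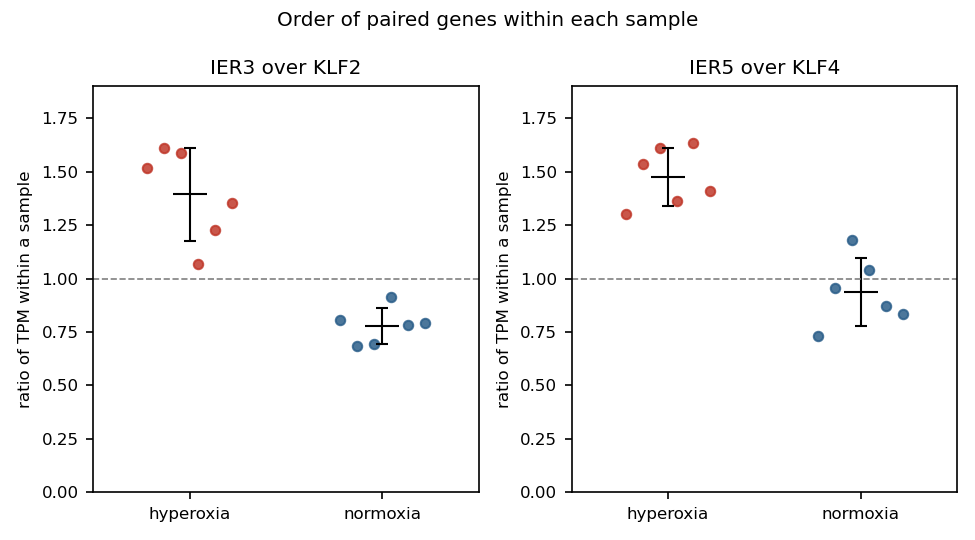
Ratio of TPM within a sample (y axis) for IER3 over KLF2 and for IER5 over KLF4 in the 6 hyperoxia samples (red, left) and 6 normoxia samples (blue, right), with the mean and SD; the dashed line marks equal levels. The IER3 to KLF2 ratio lies above the line in all 6 hyperoxia samples and below it in all 6 normoxia samples.

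Among relatives of these genes, KLF5 and KLF11 rose. Of 17 other EGR, KLF and IER genes and NAB corepressors, 11 were tested, 2 rose and 9 were not called, where 11.7% of all tested genes rose and 17.3% were called in either direction; their median log2 fold change was 0.03, beside 0.03 over all tested genes. KLF5, a factor of epithelial proliferation, rose to 7.68 ± 0.513 TPM in hyperoxia, against 5.63 ± 0.376 TPM in normoxia (SD, n = 6 each), with no overlap and a log2 fold change of 0.39 (SE 0.06, limma, Benjamini-Hochberg adjusted p = 8.35e-04). KLF11, the closest relative of KLF10, rose by 0.29 on the log2 scale (limma, Benjamini-Hochberg adjusted p = 0.0257). It ranged from 8.39 to 10.3 TPM in hyperoxia and from 5.96 to 8.41 TPM in normoxia, so the groups overlapped. The KLF11 call was lost in the limma fit with no minimum level (adjusted p = 0.0614). The corepressor NAB2, itself induced by EGR1, was at 9.14 ± 0.522 TPM in hyperoxia and 8.53 ± 0.611 TPM in normoxia (SD, n = 6 each; limma, Benjamini-Hochberg adjusted p = 0.314).

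Of 18 genes for SRF, its partners, the kinases upstream and the MEF2 factors, all were tested, 1 rose, 2 fell and 15 were not called, with a median log2 fold change of 0.04. Over all tested genes 11.7% rose and 5.63% fell, so these counts lie near the background. SRF rose by 0.15 on the log2 scale (adjusted p = 0.031), with 30.46 to 33.55 TPM in hyperoxia and 27.23 to 31.75 TPM in normoxia. The SRF coactivator MRTFB fell by 0.30 (adjusted p = 0.0106). MAPK7, the kinase ERK5, fell to 19.5 ± 2.54 TPM in hyperoxia, against 24.4 ± 1.51 TPM in normoxia (SD, n = 6 each; log2 fold change -0.32, limma, Benjamini-Hochberg adjusted p = 0.0124). MEF2C, chosen after its values were seen, ranged from 7.09 to 10.6 TPM in hyperoxia and from 9.33 to 66.9 TPM in normoxia. It did not pass in limma (adjusted p = 0.107), and normoxia replicate 5 alone holds the value of 66.9 TPM. In the authors' deposited table the log2 fold change of MEF2C is -0.37 with an adjusted p of 7.3e-08. That table gives -0.16 for MAPK7 (authors' adjusted p = 0.00657) and 0.14 for SRF (authors' adjusted p = 0.00197).

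Of 38 other immediate early genes 34 were tested, 21 rose, 3 fell and 10 were not called, where 11.7% of all tested genes rose and 5.63% fell. Their median log2 fold change was 0.34. Their counts were not tested against those of the EGR, IER and KLF members. The list was chosen with earlier results of these data known, so its counts beside the background are a description only. FOSB, NR4A2, HES1 and SNAI1 reached the minimum through hyperoxia alone; of the other 30, 17 rose. The AP-1 subunit FOS had the largest log2 fold change of the list on the log2(TPM + 1) scale, 1.44 (SE 0.14, limma, Benjamini-Hochberg adjusted p = 2.98e-05), with 3.63 to 6.01 TPM in hyperoxia and 0.63 to 1.89 TPM in normoxia. By the ratio of mean TPM, FOSB came first at 6.07 and FOS second at 4.15. On the log2(TPM + 1) scale FOSB rose by 1.34, the phosphatase gene DUSP1 by 1.10, the transcriptional inhibitor ID2 by 1.00, the repressor SNAI1 by 0.98, the phosphatase regulator PPP1R15A by 0.92 and JUN by 0.31. ATF3, a stress-induced repressor, was at 0.40 and did not pass (adjusted p = 0.0542). The 3 that fell were the GTPase gene RHOB (-0.40), the AP-1 subunit FOSL1 (-0.23) and MYC (-1.31), whose deposited columns disagree with each other; without it 21 of 33 rose and 2 fell.

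**Figure D4:**
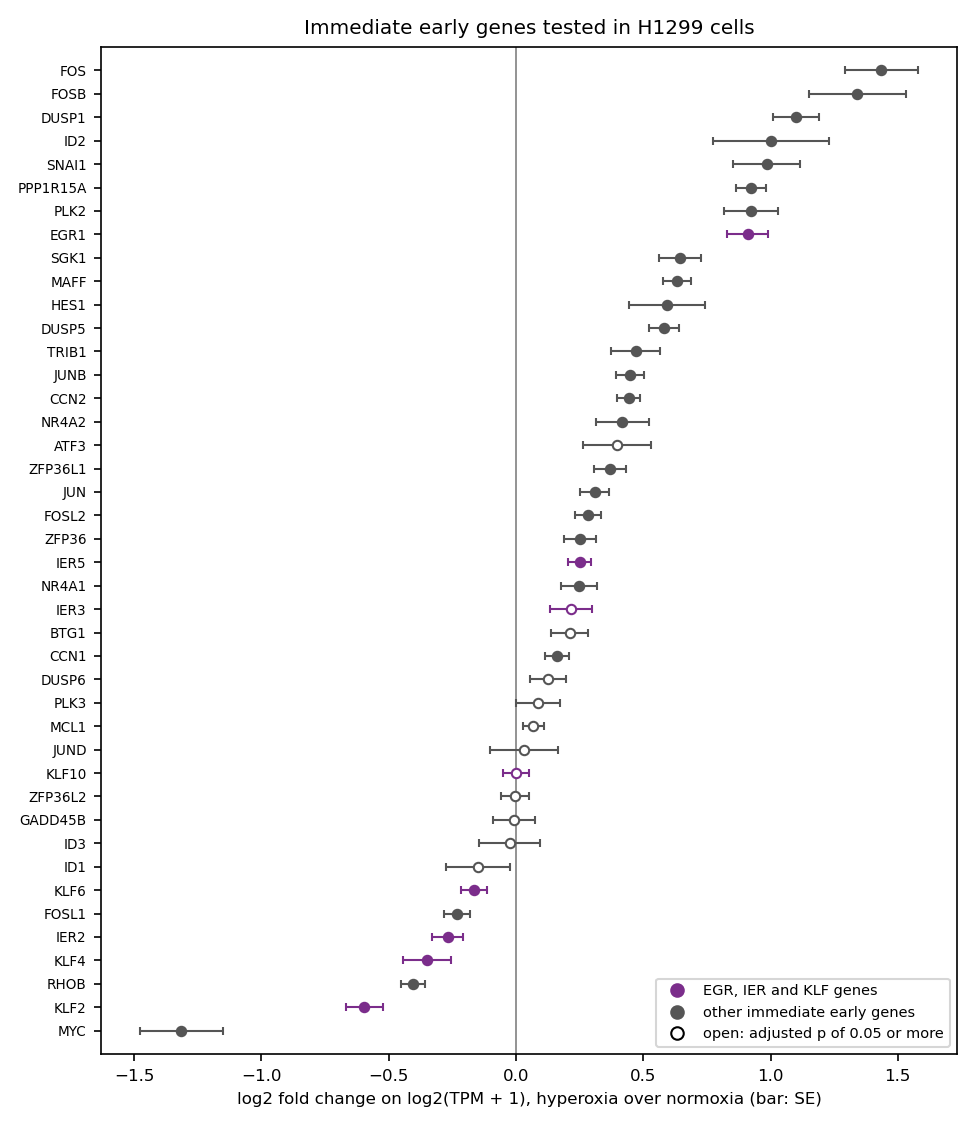
Log2 fold change on log2(TPM + 1) of hyperoxia over normoxia, with SE bars, for the 8 tested EGR, IER and KLF genes (purple) and 34 other tested immediate early genes (grey); open circles did not pass the adjusted p. EGR1 lies at 0.91 and KLF2 at -0.59; the order depends on the pseudocount, since by the ratio of means EGR1 (2.51) exceeds DUSP1 (2.32), ID2 (2.48) and PPP1R15A (1.94). The deposited columns of MYC, the lowest point, disagree.

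Likeness to a member was measured over the 12 samples as the root mean square difference in log2(TPM + 1), each gene centred on its own mean, as a description with no test. Nearest to EGR1 were NQO1 at 0.0993, FTL at 0.108 and SRXN1 at 0.109, where the median over tested genes was 0.477. This nearness holds for a pseudocount of 1, which lowers the change of EGR1: its ratio of means was 2.51, against 1.99 for FTL and less for NQO1 and SRXN1. NQO1 is a quinone reductase, FTL the ferritin light chain and SRXN1 a sulfiredoxin. Nearest to KLF2 were LINC00513 at 0.102, AC240274.1 at 0.109 and PPP3CB, a calcineurin catalytic subunit, at 0.121, where the median was 0.367. Nearest to IER2, the IER member with the largest change, were CDCA4 at 0.0448, CD151 at 0.0476 and POC1A at 0.0523, where the median was 0.222.

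Over all tested genes 1698 rose and 818 fell. After median-of-ratios scaling, which moved the median log2 fold change of all tested genes to -0.0009, against 0.03 as deposited, 1279 rose and 1277 fell, and the 6 member calls kept their direction and side of the threshold.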

How the data were processed

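RNA of 12 H1299 samples was sequenced. Reads were counted with HTSeq 0.9.1 and analysed with edgeR 3.16.5, per the submitters' processing notes, which list a mouse build although all gene identifiers are human. Aligner, annotation and TPM formula: not given in the sources used here. In addition, the labels name conflicting library kits. The deposited values are TPM per sample and the authors' mean TPM per group, per the file headers; the name of the table gives another unit, and the design had allowed for either. For each gene the authors deposited a p-value, raw and adjusted, beside the fold change on linear and log2 scales. For 78 genes, no member among them, the authors' deposited columns disagree (tolerances 1e-06 on log2 and 1e-05 TPM). The check set the log2 fold change against the linear one, and group means against sample values. It did not set fold changes against group means, so the EGR3 mismatch given above falls outside it.

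Groups came from the labels. limma 3.58.1 in R 4.3.3 (lmFit, eBayes with trend) was run on log2(TPM + 1) for genes with a mean of at least 1 TPM, two-sided, with Benjamini-Hochberg adjustment and a threshold of 0.05. The step was tested on simulated data. The depth is unknown, since TPM keeps none, so no counting intervals are given. Samples of the same replicate number were not alike across the groups (r of same-numbered deviations -0.12 to 0.02 across genes). All members were named; of each related list the called genes, or the 6 with the largest change where more were called in a direction, plus SRF, NAB2, KLF5, FOS, JUN, MYC, ATF3 and DUSP1. The members and lists were chosen with earlier results of these data known. Alternatives were another pseudocount, other minimum levels and scalings, no trend, a rank-sum test, a replicate block and left-out samples or genes. Sequences came from RefSeq. Figures were drawn with matplotlib 3.10.9.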

Additional observations from a re-analysis of the deposited data

Results flagged for a closer look

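EGR3 in normoxia had 1 sample far from the others, replicate 4 at 0.49 TPM, while the other 5 normoxia samples were at 0.05 TPM or at 0. IER2 in hyperoxia had its highest sample, replicate 6 at 146.59 TPM, apart from the other 5 hyperoxia samples, which were at 125 to 133 TPM. Each gap to the nearest sample, divided by the range of its group, exceeded Dixon's 95% critical value for 6 samples (0.898 for EGR3 and 0.63 for IER2). Chance flags about 1 in 20 groups whose values are normally spread. The EGR3 group, with 4 of 6 normoxia samples at 0, is not so spread, and that rate does not apply to it.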

How the results depend on the processing

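The calls of EGR1 and KLF2 held in all 23 and 24 alternatives that could test them. The count of members that rose was 1 once genes averaging under 5 TPM, EGR1 among them, were removed, and 1 on replicates 4 to 6 of both groups only, against 2 as reported; it was 3 with no minimum level, where EGR2 entered, and 3 without normoxia replicates 4 to 6, where IER3 passed. The count of members that fell was 2 with no minimum level, 2 under the exact rank-sum test, 1 without normoxia replicates 4 to 6, and 1 each on replicates 1 to 3 and on replicates 4 to 6 of both groups only, against 4 as reported; KLF2 was the member left in these last 3 fits, 2 of which have only 3 samples a group. Over all genes, 980 rose and 374 fell without normoxia replicates 4 to 6, 333 and 146 on replicates 1 to 3 only, 158 and 136 on replicates 4 to 6 only; 1277 fell after median-of-ratios scaling and 515 under the rank-sum test. Leaving out 1 sample gave 1317 to 1563 genes higher and 602 to 937 lower, with 2 members higher in each such fit and 3 to 4 lower. The replicate block gave 1656 genes higher and 889 lower and changed no member call; the numbers share no source in the labels, and 1 of 12 samples correlated best with its own number. KLF10, at 0 on the log2 scale, changed sign after median-of-ratios scaling (-0.029), after quantile normalisation (-0.023), on replicates 4 to 6 (-0.077) and in 5 fits without 1 sample (-0.029 to 0.019 over all 12); IER3 reversed on replicates 4 to 6 (-0.032). The fits on replicates 1 to 3 and 4 to 6 of both groups were chosen after seeing the data. For values that changed, the cause was not tested.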
